A study of Rattus norvegicus with 4 samples.

Results

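The genes described here encode voltage-gated sodium and calcium channels, the potassium channels and their accessory subunits, as measured in pancreatic islets of rats at postnatal day 14. They were taken by name: probes whose gene symbol begins with Kcn or Cacn, or with Scn and a digit, apart from 1 potassium channel gene that was left out. That gave 175 of the 30367 probes on the array, for 131 genes. Of the 131 genes, 97 gave a signal that could be tested, among 20012 genes or unnamed probes tested in all.

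The IUGR group (intrauterine growth restriction) came from Sprague Dawley dams whose uterine arteries were both ligated at embryonic day 18, which restricts blood flow to the fetuses. Control islets came from pups of dams that had sham surgery. Pups of both groups were born spontaneously. The labels give neither the sex of the pups, nor how many animals or litters a sample holds, so the p-values below measure only the spread between these samples. On each of 4 arrays 1 IUGR sample was hybridised together with 1 control sample, in Cy5 for the IUGR sample on arrays 1 and 2 and in Cy3 on arrays 3 and 4. Values for arrays 1 to 4 below are IUGR replicates 2, 1, 4 and 3, and control replicates 1, 2, 3 and 4.

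Beta cells are electrically excitable. When glucose is metabolised, ATP-sensitive potassium channels close, the membrane depolarises, voltage-gated calcium channels open, and the calcium that enters drives insulin granules to fuse. Voltage-gated sodium channels contribute to the upstroke of the action potential, voltage-gated (Kv) and calcium-activated potassium channels end it, and background potassium channels of the K2P family help to set the resting potential. Alpha and delta cells use overlapping sets of the same channels, and so do the nerve fibres, glia and vascular smooth muscle cells found in islets.

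Each array probe is a 60-base oligonucleotide, and several channel genes had more than 1 of them. The pairs printed here are ones whose readings differed widely in genes with the largest ratios, so the bases on the array are part of what was measured. Positions are on rat assembly rn4, as given in the scanner files, and exon and UTR annotation of that build was not used here. For Kcnq3 and Scn7a, the first 30 bases of the brighter probe (first line of each pair) and of the dimmer one are shown, and for Cacna1a, which had the highest mean ratio, all 60.
Kcnq3 brighter probe, chr7:103325194-103325253, minus strand: gataccaagctaatataggtctagtcagtt
Kcnq3 dimmer probe, chr7:103327700-103327759, minus strand: tcatctactggagatggtatttcagattcc
Scn7a brighter probe, chr3:48633684-48633743, minus strand: gtatttcttgcaacttgaagaaaatgaccc
Scn7a dimmer probe, chr3:48634739-48634798, minus strand: actctaaaggtgtccactctggtcaaatcg
Cacna1a brighter probe, chr19:25320530-25320589, minus strand: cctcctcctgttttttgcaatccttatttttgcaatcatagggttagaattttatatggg
Cacna1a dimmer probe, chr19:25194788-25194847, minus strand: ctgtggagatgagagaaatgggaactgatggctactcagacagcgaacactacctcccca

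The IUGR channel was the brighter one on array 1, by 1.68 on the log2 scale, and the dimmer one on arrays 2, 3 and 4, at -1.58, -2.42 and -1.55, before normalization. Signal was well above background at 64.6%, 46.9%, 57.7% and 56.0% of the member probes in the IUGR channels of arrays 1 to 4, against 54.3%, 71.4%, 70.9% and 74.3% in the control channels. No spot was saturated. Normalized ratios of all genes on array 1 correlated with those on arrays 2, 3 and 4 at r = 0.13, -0.23 and -0.30 (taken over genes, which do not count as independent replicates), whereas arrays 2, 3 and 4 correlated with each other at 0.37 to 0.63. Over the members alone, array 1 correlated with arrays 2, 3 and 4 at 0.26, 0.12 and 0.20. Arrays 2, 3 and 4 correlated with each other at 0.52 to 0.66 over the members.

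Which channel genes differ in abundance between IUGR and control islets was asked with limma, a moderated linear model fitted to the log2 IUGR over control ratios of all 20012 genes with a term for dye. After Benjamini-Hochberg adjustment no member passed an adjusted p of 0.05 (0 of 97), nor did any other gene on the array (0%). The smallest adjusted p was 0.339, and the members had adjusted p-values from 0.339 to 0.998 in limma. What follows is thus a description of sizes and signs, in which no single gene is called changed. At an unadjusted limma p under 0.05, 3 members were higher in IUGR islets, where 7.14% of all genes tested were, and 13 were lower, where 6.55% of all genes were. The ratio was above 0 on all 4 arrays in 8 members (11% of all genes) and below 0 on all 4 in 17 (9.69% of all genes). The median ratio of the 97 members was -0.011 on the log2 scale, beside 0.014 for all genes (0.16 and -0.05 under median centring in place of loess), and 41 of the 97 lay within 0.1 of 0. Sign aside, the median size of a ratio was 0.125 in the members and 0.136 in all genes. In 7 members (7.22%, against 5.94% of all genes) the ratio lay more than 0.5 from 0. Among them were Scn7a, Kcnq3, Kcnab1 and Kcnk5 below 0, and Cacna1a and Kcnma1 above 0. Of the 97 tested, 19 passed the filter on dim signals through their control channels alone and 0 through their IUGR channels alone. Of all 20012 genes tested, 1740 and 85 did. Passing through control channels alone was thus more frequent among the members than among all genes. Of those 19, 1 was among the 13 lower genes, and 4 were among the 17 below 0 on all 4 arrays.

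**Figure D1:**
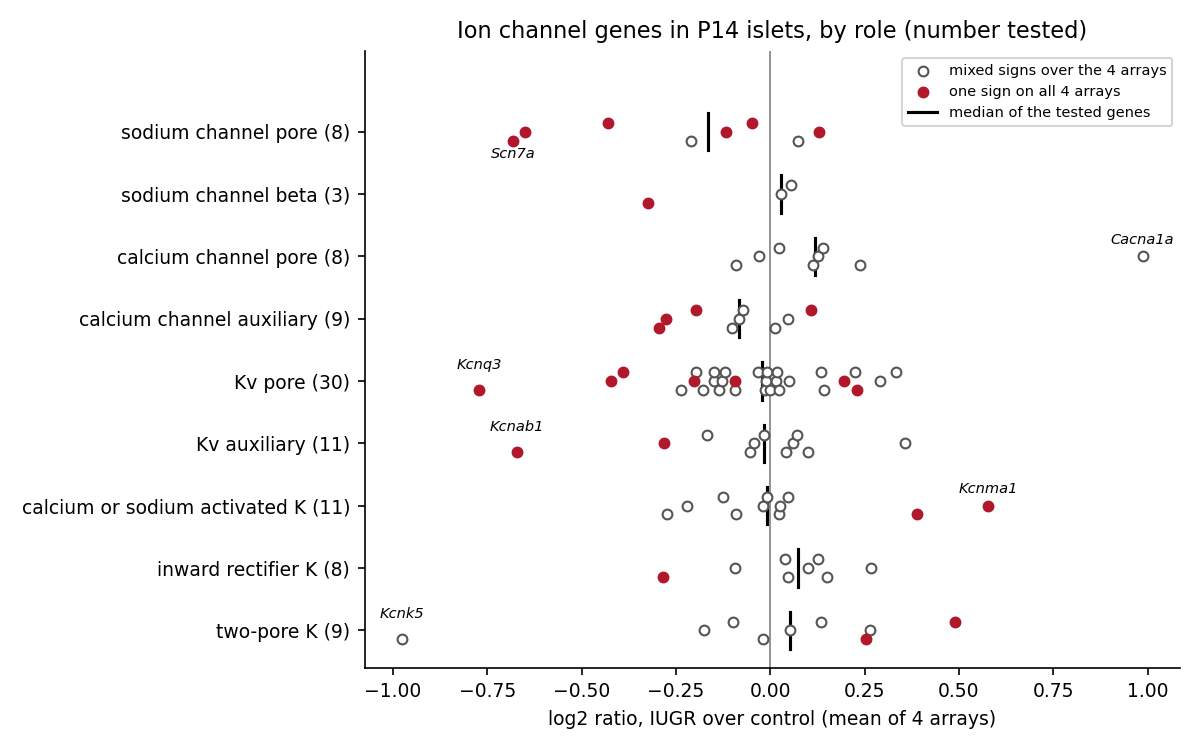
Mean log2 ratio, IUGR over control, of each tested channel gene (points), grouped by role, with the number tested in brackets and the group median as a black bar. Filled points had the same sign on all 4 arrays. The 4 labelled genes below 0 lie between -0.67 and -0.98, Cacna1a lies at 0.99, and the pore-forming sodium channel genes have the lowest group median, -0.16.

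Voltage-gated sodium channels are built from 1 large pore-forming alpha subunit with beta subunits beside it. Of the 8 alpha genes tested, 6 lay below 0 and 2 above, with a median of -0.16. That median was -0.62 with Agilent's processed signals and -0.38 with a normexp offset of 0, was -0.43 over the 5 genes well above background in every channel, and lay between -0.09 (without array 2) and -0.23 (without array 1) with single arrays left out. In 5 of them the ratio was below 0 on all 4 arrays, as it was in 9.69% of all genes tested. In 3 of these, Scn7a and Scn9a among them, the unadjusted limma p was under 0.05 (lower in 6.55% of all genes).

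Scn7a encodes Nax, an atypical member of the family that in rodents senses sodium in glia of the brain and is also found in Schwann cells. Its level, given throughout as log2 normalized intensity, was 9.70, 9.44, 9.67 and 10.15 in the IUGR samples of arrays 1 to 4, against 10.25, 10.37, 10.38 and 10.70 in the control samples. Every IUGR sample was below every control sample, so the groups did not overlap, which was the case for 4 of the 97 members and for 3% of all genes tested. The log2 ratio was -0.68 ± 0.18 (SD over 4 arrays), or 0.624-fold, with a 95% interval of -0.94 to -0.42. Its adjusted p in limma was 0.339. The dimmer of its probes, printed above, read -0.55, -0.19, 0.17 and 0.06 on arrays 1 to 4, a mean of -0.13.

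Scn9a encodes Nav1.7, in mouse islets reported in beta and alpha cells and in other tissues a channel of sensory neurons. Its levels were 8.86, 8.80, 8.84 and 9.03 in IUGR samples, against 8.998, 9.57, 9.11 and 9.57 in control samples. All 4 IUGR values lay below those of the control on the same array, with the top IUGR sample above the lowest control. The ratio was -0.43 ± 0.29 (SD over 4 arrays; 95% interval -0.78 to -0.08).

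Scn3a (Nav1.3), a channel tied to sodium currents of mouse beta, alpha and delta cells, showed no such difference. It had levels of 9.75, 10.30, 10.28 and 10.29 in IUGR samples, against 9.91, 10.21, 9.94 and 10.27 in control samples. The groups overlapped almost wholly, the ratio was 0.07 and its 95% interval ran from -0.18 to 0.33. Scn8a (Nav1.6) read above 0 on each array, at 0.02, 0.28, 0.08 and 0.14, with an interval of -0.09 to 0.35. Scn2a1, now named Scn2a, read -0.21, Scn11a -0.12 and Scn1a -0.05. Scn11a and Scn1a were not well above background in any IUGR channel. On the chromosome, the probes of Scn3a (chr3:47496786-47496845), Scn2a1 (chr3:47722732-47722791), Scn1a (chr3:48238557-48238616), Scn9a (chr3:48438851-48438910) and Scn7a lie in one cluster on rn4, and within it the ratios ran from 0.07 for Scn3a to -0.68 for Scn7a.

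Among the beta subunits, which tune gating and placement of the alpha subunit, Scn4b read below 0 on every array, at -0.06, -0.25, -0.64 and -0.34. Its mean was -0.33 (95% interval -0.57 to -0.08). Scn3b lay near 0 (0.06). Scn2b was not well above background in any channel.

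Marker lists of other cells that carry these channels lay mostly below 0 as well, with summed levels that overlapped between the groups and no gene past the adjusted threshold (0). In a list of Schwann cell and neural markers, 6 of 8 genes tested lay below 0, with a median of -0.23. The summed normalized intensity of that list was 5540 to 7300 in IUGR samples, against 6940 to 10000 in control samples. Mbp, a myelin gene of Schwann cells, read -0.66. Of the smooth muscle and pericyte markers 6 of 7 lay below 0, with a median of -0.72 and sums of 11200 to 26400 in IUGR samples, against 22400 to 30800 in control samples. Their part in the sodium channel values was not tested. In islet RNA, fewer cells of a type and less RNA per cell cannot be told apart.

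**Figure D2:**
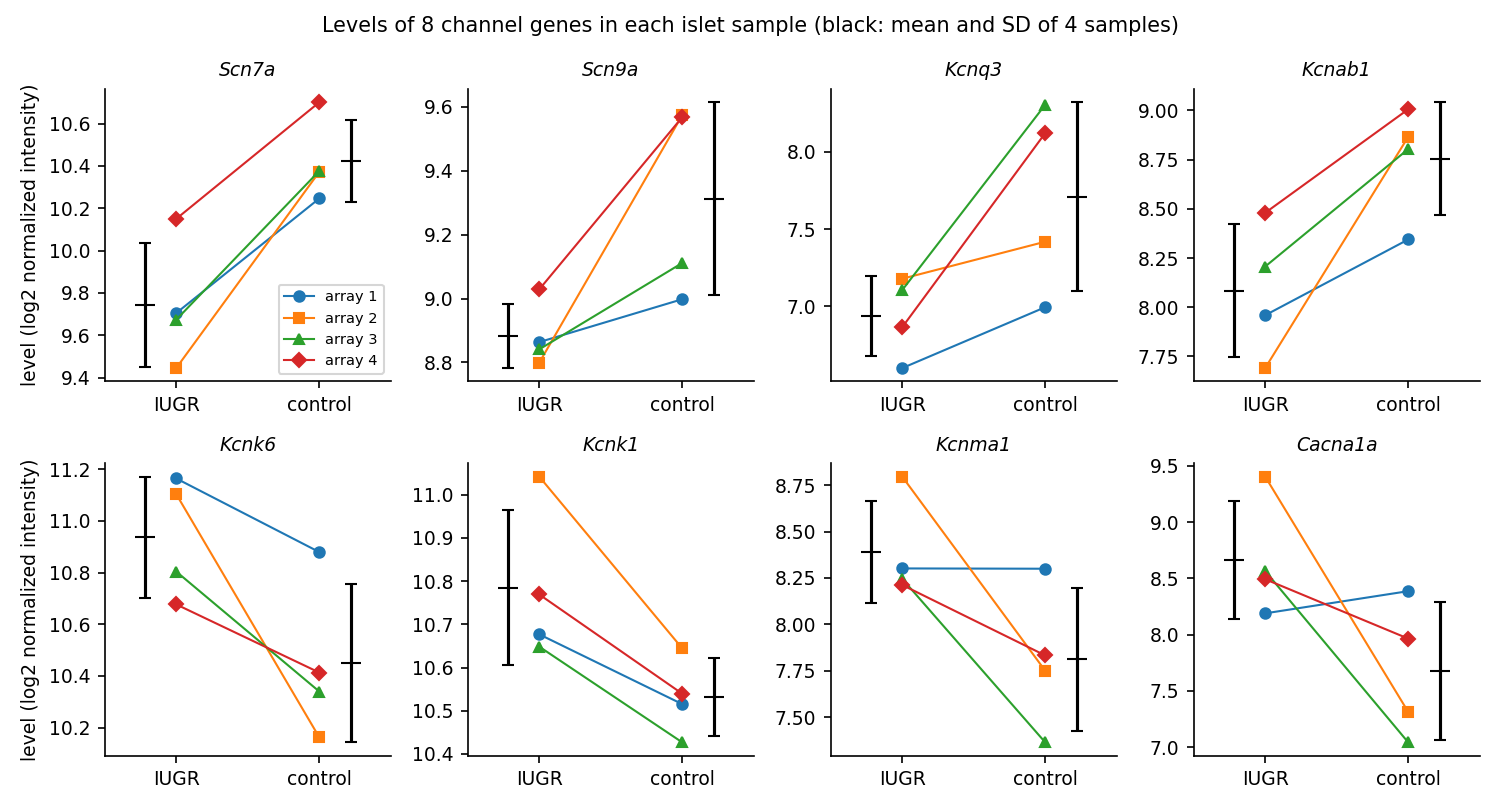
Log2 normalized intensity of 8 channel genes in each IUGR sample (left) and each control sample (right), with lines joining the samples of one array and black bars for mean and SD of 4 samples. Scn7a and Kcnk1 are the genes shown whose groups do not overlap, and Kcnma1 and Cacna1a are flat or turned round on array 1.

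Voltage-gated calcium channels consist of a pore-forming alpha1 subunit with beta, alpha2delta and, in some tissues, gamma subunits. Of 8 pore genes tested, 6 lay above 0 and 2 below, with a median of 0.12. Without array 2 the median was 0.015, with 5 above 0 and 3 below, and without array 1 it was 0.22. None of these genes had an unadjusted limma p under 0.05 (0 of 8, against 7.14% higher and 6.55% lower of all genes). On all 4 arrays 0 kept one sign, against 11% of all genes above 0 and 9.69% below.

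Cacna1a encodes Cav2.1, the P/Q-type channel, which contributes to exocytosis in beta cells. It had levels of 8.19, 9.41, 8.57 and 8.49 in IUGR samples, against 8.39, 7.31, 7.04 and 7.96 in control samples. On arrays 2, 3 and 4 the IUGR sample was the higher by 2.09, 1.52 and 0.53, and on array 1 it was the lower, at -0.20. The mean of 0.99 ± 1.02 (SD over 4 arrays) is the largest positive ratio among the members, and its 95% interval of -0.09 to 2.06 includes 0. Without array 1 the ratio was 1.56, and without array 2 it was 0.41. The second, dimmer probe gave -0.03, 0.27, 0.46 and 0.23, a mean of 0.23. The probes lie 125742 bases apart on chromosome 19.

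Cacna1d and Cacna1c encode Cav1.3 and Cav1.2, the L-type channels through which most of the calcium for insulin release enters rodent beta cells. Cacna1d levels were 7.19, 7.31, 7.23 and 7.20 in IUGR samples, against 7.24, 7.002, 6.85 and 6.89 in control samples. Except on array 1 the IUGR sample was the higher, and the ratio was 0.24 ± 0.20 (SD over 4 arrays) with an interval of -0.01 to 0.49. For Cacna1c the levels were 8.64, 9.22, 9.21 and 9.04 in IUGR samples, against 8.99, 9.07, 8.74 and 8.87 in control samples. Its sign differed between array 1 (-0.35) and the others, and the mean of 0.11 had an interval of -0.20 to 0.42. The T-type gene Cacna1h spread more widely, from -0.66 on array 3 to 0.96 on array 2, and its 1 probe shares a run of 31 bases with an array probe of another gene, Tpsg1. Cacna1e, the R-type channel, did not pass the filter on dim signals.

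Of the 9 auxiliary calcium channel genes tested, 3 lay above 0 and 6 below, with a median of -0.08 that became 0.28 under median centring in place of loess. Cacnb3, a beta subunit that in mice restrains calcium oscillations of beta cells, had levels of 12.57, 13.09, 12.88 and 13.21 in IUGR samples, against 12.70, 13.25, 13.27 and 13.32 in control samples. The IUGR sample was lower on each array by a small margin, a mean of -0.20 with a 95% interval of -0.42 to 0.03. Cacnb1, the beta subunit best known from skeletal muscle, read -0.25, -0.39, -0.41 and -0.05 (mean -0.28, 95% interval -0.53 to -0.02). Its dimmer probe gave a mean of -0.04. Cacnb2, the main beta subunit partner in beta cells, read 0.05 with an interval of -0.20 to 0.29, and Cacng7 was above 0 on all 4 arrays at a mean of 0.11, with 1 of 4 IUGR channels and 2 of 4 control channels above background. Cacng2, a gamma subunit that in brain traffics glutamate receptors, read below 0 on all 4 arrays at a mean of -0.30. For Cacna2d1, which carries channels to the cell surface, the ratio was -0.08.

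Kv channels are tetramers of pore-forming subunits, and this was the largest group, with 30 genes tested, 11 above 0 and 19 below. Their median was -0.02, and 0.20 under median centring. There were 4 genes at an unadjusted p under 0.05, all lower in IUGR (6.55% of all genes): Kcnq3, Kcnq1, Kcns3 and Kcnv2. None (0 of 30) was higher at that level (7.14% of all genes).

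Kcnq3 encodes Kv7.3, which with Kv7.2 carries the M current that damps firing in neurons. Its levels were 6.60, 7.18, 7.11 and 6.86 in IUGR samples, against 6.995, 7.42, 8.30 and 8.12 in control samples. The IUGR sample was lower on every array, by much more on arrays 3 and 4 (-1.20 and -1.26) than on arrays 1 and 2 (-0.39 and -0.24). Those pairs of arrays differ in which dye the IUGR sample carried. With the dye term the mean of -0.77 ± 0.53 (SD over 4 arrays) had an SE of 0.08, a 95% interval of -0.98 to -0.57 and the smallest p among the members. Adjusted in limma it was 0.339, and 0.345 in a fit without the dye term that was added after the data were seen. At its other probe, 2506 bases away, the ratios were -0.10, 0.16, 0.03 and -0.15, a mean of -0.02. On arrays 3 and 4 the marker lists of B cells (medians -1.08 and -0.81), T and NK cells (-1.14 and -0.55) and delta, PP and epsilon cells (-1.20 and -0.63) were also lower than on arrays 1 and 2, where their medians lay between -0.20 and 0.03. Their part in the Kcnq3 values was not tested.

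Kcnq1 encodes Kv7.1, a channel of heart and epithelia whose locus is tied to human type 2 diabetes risk. Levels were 8.89, 9.47, 10.21 and 10.18 in IUGR samples, against 9.40, 10.27, 10.25 and 10.52 in control samples. All 4 IUGR samples were below their array partner, at ratios from -0.03 on array 3 to -0.80 on array 2, and the groups overlapped. The mean was -0.42 ± 0.32 (SD over 4 arrays; 95% interval -0.68 to -0.16), and the dimmer probe, 897 bases away, gave -0.10. Kcne2, a partner subunit that in epithelia makes Kv7.1 constitutively open, also read below 0 on each array, at -0.16, -0.45, -0.39 and -0.13. Kcne1, the partner that slows Kv7.1 in the heart, ran from -0.22 to 1.15 over the arrays. Epithelial duct markers were lower in 4 of 5 genes tested, with a median of -0.43. Their summed intensity was 4600 to 6480 in IUGR samples, against 4690 to 8050 in control samples, and its part in these values was not tested.

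Kcns3 encodes Kv9.3, a silent subunit that forms no channel alone and modifies other Kv channels. Its levels were 7.24, 7.26, 7.47 and 7.43 in IUGR samples, against 7.501, 7.70, 8.06 and 7.71 in control samples. No IUGR sample reached the lowest control sample. The ratio was -0.39 ± 0.15 (SD over 4 arrays) with an interval of -0.64 to -0.15. Kcnv2, another silent subunit, read -0.09, -0.19, -0.28 and -0.25.

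Kcnh2 (ERG1, which shapes repolarisation) read 0.05, with an interval of -0.19 to 0.29, and its dimmer probe read 0.30. Kcnh3 and the silent subunit Kcng2 were above 0 on all 4 arrays, at 0.23 and 0.20, with intervals from -0.04 to 0.50 and from -0.11 to 0.50. Without array 2 Kcnh3 read 0.125, and without array 4 Kcng2 read 0.072.

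Of the Kv auxiliary genes, 11 were tested, 5 above 0 and 6 below, with a median of -0.02 (0.17 under median centring). The largest ratio was that of Kcnab1, a cytoplasmic beta subunit that speeds inactivation of Kv1 channels. IUGR samples had levels of 7.96, 7.69, 8.21 and 8.48, against 8.34, 8.87, 8.80 and 9.01 in control samples. The IUGR sample was the lower on each array, most of all on array 2, and the highest IUGR sample lay above the lowest control. The ratio was -0.67 ± 0.35 (SD over 4 arrays; 95% interval -1.06 to -0.28). Its dimmer probe, 84187 bases away on chromosome 2, read -0.07, -0.24, -0.07 and -0.33, the same sign on all 4 arrays at a mean of -0.18.

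Of the channels gated by intracellular calcium or sodium, all 11 genes were tested, 5 above 0 and 6 below, with a median of -0.009 (0.22 under median centring). Kcnma1, the pore of the BK channel that in mice shortens beta cell action potentials, had levels of 8.30, 8.80, 8.25 and 8.21 in IUGR samples, against 8.30, 7.75, 7.36 and 7.83 in control samples. On array 1 the samples were alike (0.0016), and on the others the IUGR sample was higher by 1.05, 0.88 and 0.38. The mean was 0.58 ± 0.48 (SD over 4 arrays; 95% interval 0.051 to 1.103), or 1.49-fold. Without array 1 it was 0.84, and without array 2 it was 0.32. Its other probes, which lie 625932 and 627103 bases away on chromosome 15, read -0.04 and 0.17. The brightest probe and the start of another are printed because their readings differ.
Kcnma1 brighter probe, chr15:323124-323183, plus strand: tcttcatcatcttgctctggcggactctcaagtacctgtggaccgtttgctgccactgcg
Kcnma1 second probe, chr15:949056-949115, plus strand: acggataatgcctatcccagaaacattcaa

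Kcnmb2, a BK beta subunit that inactivates the channel, was above 0 on all 4 arrays as well. Its levels were 10.17, 11.03, 10.098 and 10.105 in IUGR samples, against 10.04, 10.03, 9.89 and 9.88 in control samples. The groups did not overlap, and the IUGR sample of array 2 stood far above the other IUGR samples. The mean of 0.39 had a 95% interval of -0.03 to 0.81, and the second probe gave -0.09. The remaining BK beta subunits read 0.05 (Kcnmb3), -0.13 (Kcnmb1) and -0.22 (Kcnmb4), and the small-conductance channel Kcnn2 read -0.27.

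Of the inward rectifiers, 8 were tested of 14 genes, 6 above 0 and 2 below, with a median of 0.07. Kcnj1 (ROMK, the potassium secretion channel of kidney) was not well above background in any IUGR channel and was so in 3 of 4 control channels. Its measured levels were 6.25, 6.02, 6.11 and 6.03 in IUGR samples, against 6.35, 6.24, 6.56 and 6.39 in control samples. With IUGR levels raised to at least the dimmest signal called above background, the control mean was 1.15-fold higher. That mean includes a control channel not well above background, and Kcnj1 passed the filter through control channels alone. The fold is therefore no lower limit on a difference. The adjusted p of its ratio was 0.339 in limma. Under median centring in place of loess the ratio of Kcnj1 was 0.35, the opposite direction. In all, 12 tested members had no IUGR channel well above background, and 0 had no such control channel. The same fold exceeded 1 for 8 of the 12 and reached 1.15 at most. The share of all genes at this cut was not counted. Of all genes tested, 1740 passed the filter through control channels alone and 85 through IUGR channels alone. The IUGR channel was the dimmer one on arrays 2, 3 and 4 before normalization. Kcnj8, the ATP-sensitive channel pore of vascular smooth muscle and pericytes, was lower in IUGR on arrays 1 and 2 (-0.29 and -0.34) and higher on arrays 3 and 4 (0.32 and 0.50). Its mean was 0.05. Kcnj6, which forms G protein-gated channels in islets, was not well above background in any channel.

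K2P channels carry background potassium current. Of 9 genes tested 5 lay above 0 and 4 below, with a median of 0.05 (-0.09 under median centring). Kcnk6 (TWIK-2) had levels of 11.16, 11.10, 10.80 and 10.68 in IUGR samples, against 10.88, 10.16, 10.34 and 10.41 in control samples. The IUGR sample was the higher on every array, with overlap between the groups because both samples of array 1 were high. The ratio was 0.49 ± 0.32 (SD over 4 arrays; 95% interval 0.14 to 0.84), and its p was the smallest among members higher in IUGR (0.339 adjusted in limma). Kcnk1 (TWIK-1) had levels of 10.68, 11.04, 10.65 and 10.77 in IUGR samples, against 10.52, 10.64, 10.43 and 10.54 in control samples. Each IUGR sample was above every control sample, though the nearest were 0.0041 apart. The mean of 0.25 ± 0.10 (SD over 4 arrays) had an interval of 0.04 to 0.47, and under median centring in place of loess it was -0.09.

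Kcnk5 (TASK-2), an alkaline-activated channel of epithelia, had the lowest mean ratio of all 97 tested members but not one sign on the arrays, and is named because of its size, after its values were seen. Levels were 8.18, 8.15, 8.44 and 8.23 in IUGR samples, against 8.05, 9.63, 10.097 and 9.13 in control samples. The IUGR values stayed within a narrow range, and control replicate 1, on array 1, was the one control sample as low as they were. The mean ratio was -0.98 ± 0.81 (SD over 4 arrays; 95% interval -1.76 to -0.20). Without array 1 it was -1.38 and without array 2 it was -0.57.

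Kcnk16 (TALK-1), a K2P channel largely restricted to islets in human and mouse, had levels of 13.86, 14.00, 13.65 and 13.66 in IUGR samples, against 13.77, 13.96, 13.72 and 13.80 in control samples. The groups covered the same range, with a ratio of -0.02 and an interval of -0.21 to 0.18. Its 2 dimmer probes read 0.32 and 0.52, with 0.91 and 1.16 on arrays 2 and 3 at the dimmest. Kcnk3 (TASK-1), an acid-sensitive channel of beta and alpha cells, read 0.05 with an interval of -0.20 to 0.30.

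**Figure D3:**
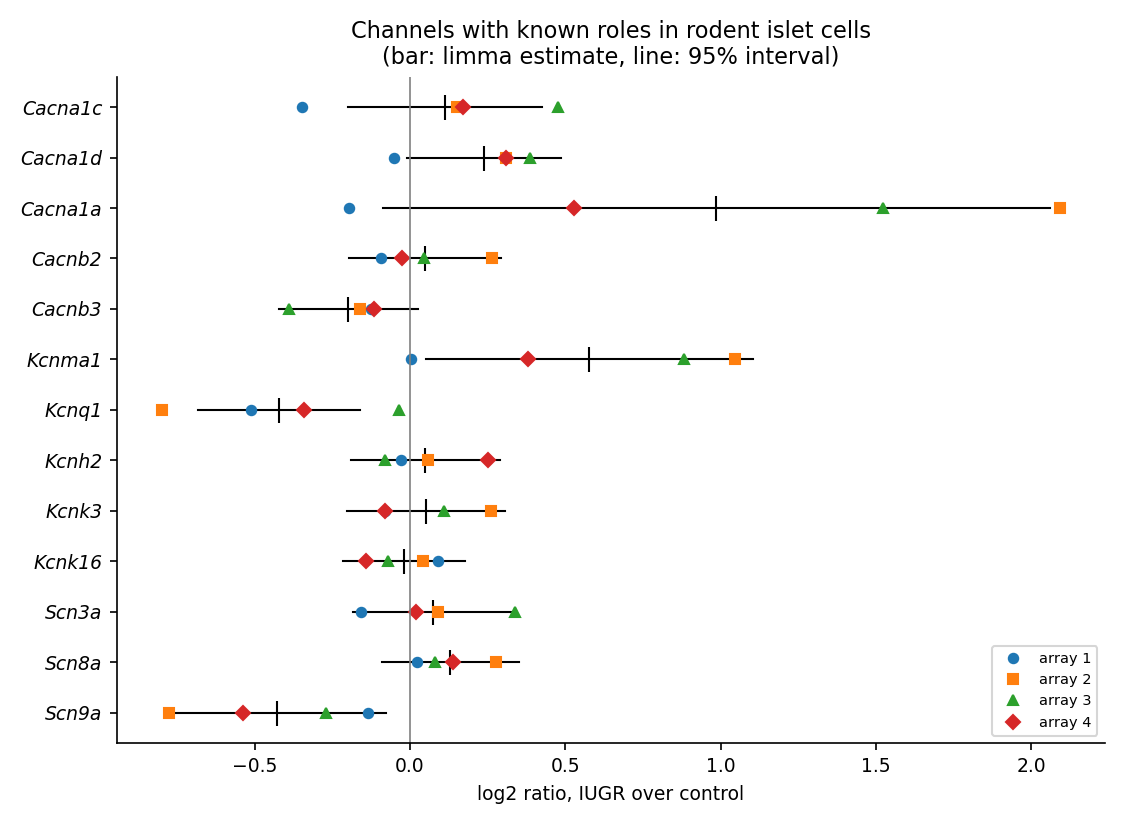
Log2 ratios, IUGR over control, of 13 tested channel genes with known roles in rodent islet cells: coloured points are single arrays, black bars the limma estimate and lines its 95% interval. The interval lies above 0 for Kcnma1, below 0 for Kcnq1 and Scn9a, and includes 0 for the others.

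How far a ratio depends on which bases of a transcript are probed was compared in the 27 tested members that had more than 1 probe passing the filter, which made 29 pairs with the brightest probe. The mean ratios of a pair differed by a median of 0.20 and by up to 0.76, for Kcnq3. Of the 29 pairs, the dimmer probe lay nearer 0 in 18 and farther from 0 in 11. In 6 of the 27 genes at least 1 pair had opposite signs. The brightest probe stood for its gene, as in the values above. The 18 include Kcnq3, Scn7a, Kcnq1, Kcnab1, Cacna1a, Kcnma1 and Kcnmb2, which are named for large ratios at the brighter probe, and the 11 include Kcnk16 and Kcnh2, whose brighter probes read near 0. In those 7 genes the dimmer probes had mean log2 intensities of 6.28 to 8.51, and the brightest probes 7.35 to 10.16. The part of signal intensity, and of transcripts with other ends or exons, was not tested.

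**Figure D4:**
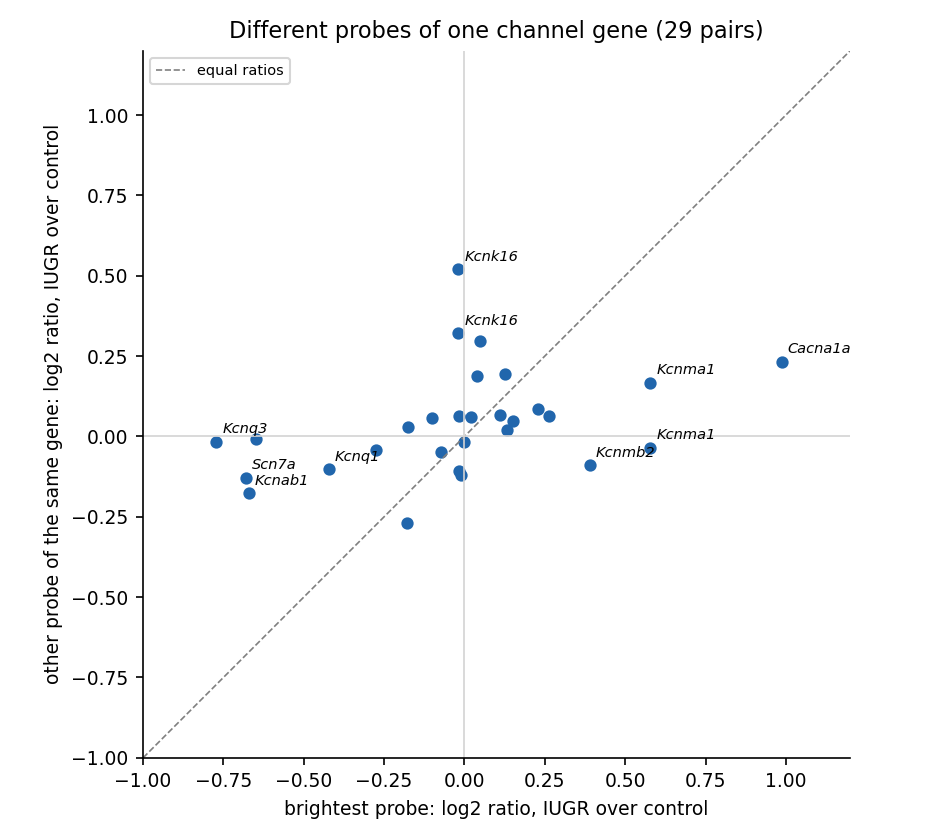
Mean log2 ratio, IUGR over control, at the brightest probe of a channel gene (horizontal) and at another probe of the same gene (vertical), for 29 pairs of 27 genes. Points on the dashed line would read alike, and the labelled genes differ by more than 0.3, with Kcnq3 and Cacna1a the farthest from the line.

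Other genes of islet electrical activity and calcium handling were read from a list of 58, of which 52 were tested. Their ratios had a median of 0.04, with 30 above 0 and 22 below. Of these 0 passed the adjusted threshold (0% of all genes), and at an unadjusted limma p under 0.05 there were 5 higher (7.14% of all genes) and 5 lower (6.55%). Lrrc8a, the core subunit of volume-regulated anion channels, read 0.24, 0.51, 0.24 and 0.23 on arrays 1 to 4 (mean 0.30). Orai1, the pore of store-operated calcium entry, read 0.14, 0.64, 0.75 and 0.25 (mean 0.44). Below 0, Abcc9, the sulfonylurea receptor subunit of vascular ATP-sensitive channels, read -0.29.

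The label of pancreatic islets was read against markers of the cells that islet preparations hold. All 9 beta cell genes tested lay above 0, with a median of 0.30, and among them Ins1 read 0.22, Ins2 0.29 and Mafa 0.94. The insulin genes had opposite signs by dye, with Ins1 at 1.06, 1.70, -0.98 and -0.89 and Ins2 at 1.26, 1.72, -1.03 and -0.79 on arrays 1 to 4. The summed normalized intensity of all 9 beta cell genes was 361000 to 957000 in IUGR samples, against 354000 to 731000 in control samples. Alpha cell markers were split, with 3 of 7 above 0 and Gcg at -0.13 (sums 106000 to 213000 in IUGR samples, against 109000 to 233000 in control samples). All 5 delta, PP and epsilon markers lay below 0, with Sst at -0.27 and sums of 153000 to 302000 in IUGR samples, against 158000 to 320000 in control samples. All 5 acinar genes lay above 0, with a median of 0.37 that ran from -0.24 on array 4 to 1.67 on array 3 and sums of 324000 to 725000 in IUGR samples, against 252000 to 545000 in control samples. Macrophage genes were above 0 in 4 of 5 and red blood cell genes in 3 of 3, with medians of 0.30 and 0.60, B cell genes below 0 in 4 of 4 (-0.48), T and NK genes below 0 in 7 of 7 (-0.45, with sums of 943 to 1180 in IUGR samples, against 1180 to 5190 in control samples), and endothelial genes above 0 in 4 of 5 (0.15). Fibroblast (0.02, 2 of 4 above) and skeletal muscle genes (-0.06, 1 of 3 above) had medians near 0. None of these 14 lists had a gene past the adjusted threshold, and their part in the channel values was not tested.

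**Figure D5:**
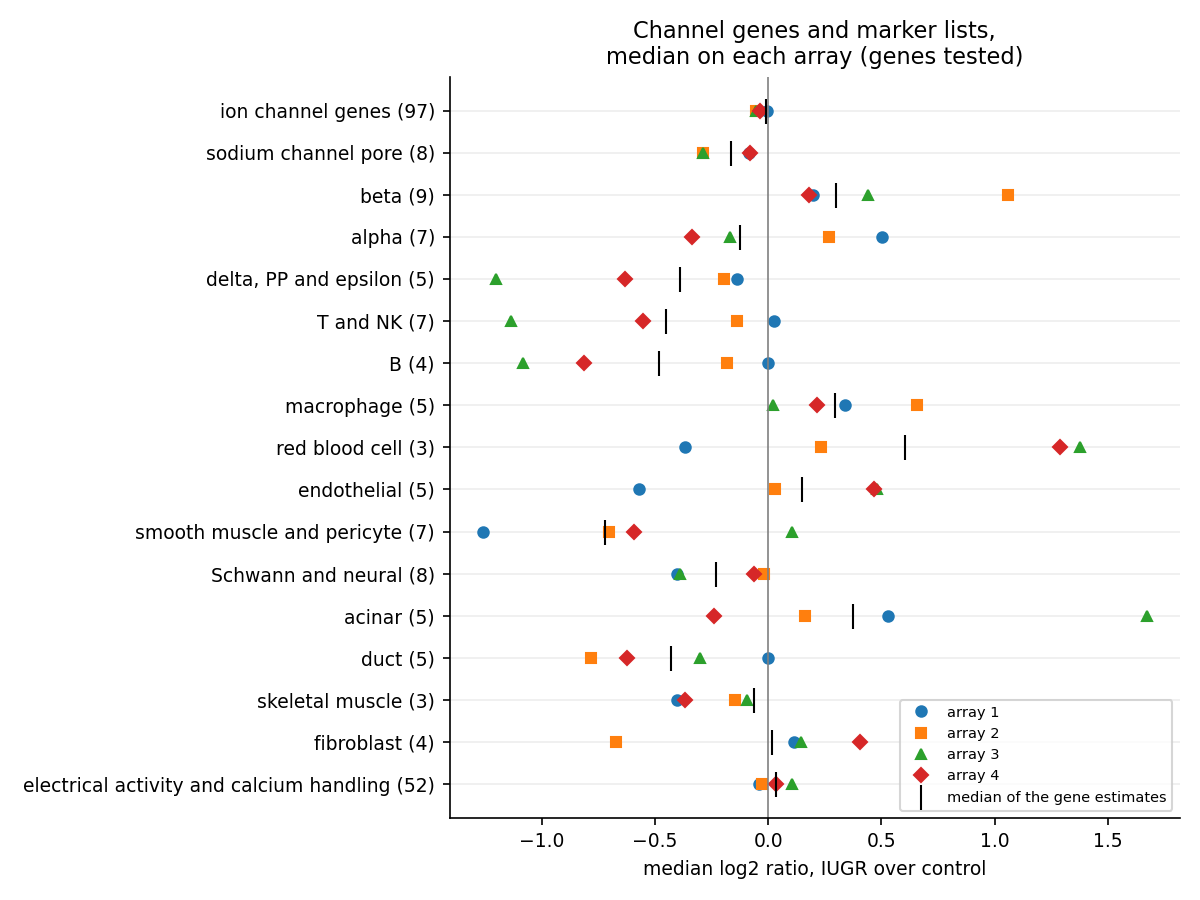
Median log2 ratio, IUGR over control, on each array (coloured points) and over the gene estimates (black bars) for the channel genes, the pore-forming sodium channel genes, each cell type marker list and the list of electrical activity and calcium handling genes. The channel genes have medians between -0.053 and -0.0050. Those of all genes tested, not drawn, lie between -0.0051 and 0.018, as loess centres each array near 0. Several of the much shorter marker lists spread over more than 1 log2 unit between arrays.

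The other 34 member genes were not tested, and 26 of them were not well above background in any of the 8 channels. Among these were Kcna3, the Kv channel of lymphocytes, Kcnj2 and Kcnj10, inward rectifiers of muscle and glia, Scn4a of skeletal muscle and Scn10a of sensory neurons. At this signal a difference in these genes was not detectable, which does not show that they are absent. By contrast, 62 of the 97 tested members were well above background in all 8 channels.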

How the data were processed

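Per the labels' protocols, total RNA of isolated islets was extracted with TRIzol, and amplified cDNA was labelled with Cy3 or Cy5. Per the file headers, Agilent's Feature Extraction software, version 10.10.1.1 with protocol GE2_1010_Sep10, produced the signals on array design 28282 (rn4 coordinates). The deposited scanner files hold signals and backgrounds in units of intensity and a log10 ratio of Cy5 over Cy3. A deposited value table gives log2 ratios spot by spot, and per the submitters' processing notes limma was used, with version and settings not given. Its rows matched the scanner files by row number. It correlated with Cy5 over Cy3 loess ratios made here without background subtraction at r = 0.94 to 0.97, with column medians of -0.029 to 0.008. Its background treatment stays unknown. Other deposited columns are flags.

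Mean signals and median backgrounds were corrected here with normexp (offset 50), and normalized by loess within each array (controls at weight 0), using limma 3.58.1 and statmod 1.5.0 under R 4.3.3. Feature outliers were left out, and spots with an outlying local background (222, 44, 145 and 52 on arrays 1 to 4) were given their array and channel's median background. Spots of a probe were averaged, and the brightest probe stood for a gene. A gene was tested if measured on all 4 arrays and well above background in at least 2 of 4 channels of either group. The limma model held IUGR over control and a dye term, with 2 residual and 2.76 prior degrees of freedom, and p-values were Benjamini-Hochberg adjusted over 20012 genes. Intervals are 95% and come from that model's moderated SE. It is the error of a mean over 4 arrays, whereas the SD is the spread of single arrays. Where ratios differ by dye, the dye term takes that part out of the SE and not out of the SD. Levels are log2 intensities per channel after loess and Aquantile scaling, open to dye bias within an array, and not comparable between probes. Only 4 arrays, on 1 slide with 1 scan, limit the precision. The code was tested on simulated data.

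By symbol or accession, 164 of 175 member probes matched RefSeq (GRCr8, names only). Named are up to 8 genes per direction of one sign on all 4 arrays with the smallest p, a fixed set of 16 islet channels, the 2 genes per direction with the smallest p in the electrical activity list, and defining genes of marker lists. Other genes are named for their role beside these, and their choice followed their values, as did that of printed sequences. The members and lists were chosen with earlier results of these data known. Some genes that these rules would name are not reported here.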

Additional observations from a re-analysis of the deposited data

Results flagged for a closer look

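Among the 26 genes whose 4 array ratios were checked, 3 had a single array far from the others, with a gap past Dixon's 95% limit, where chance flags about 1 in 20. For Kcnmb2 the log2 ratio on array 2 was 1.003, and the other arrays lay between 0.12 and 0.22. For Cacng7 the ratio on array 4 was 0.310, and the others lay between 0.03 and 0.05. For Cacnb3 the ratio on array 3 was -0.390, and the others lay between -0.16 and -0.12.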

How the results depend on the processing

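Across 20 other settings, 26 named genes gave 516 values, of which 490 kept their sign and their side of the adjusted threshold, and 17 genes never changed sign. No member passed an adjusted p of 0.05 under any setting (0) but 1, a separate-channel fit with the replicate number as a block. At the same ratios that fit called 14 of the 97 members and 2647 of all 20012 genes, which are similar shares (12 members higher at an unadjusted p under 0.05). There Kcnk6, Kcnma1, Kcnmb2, Kcnq3, Scn7a, Kcnab1, Kcns3, Cacna1a, Scn9a and Kcnk5 were among those that passed. Its residual comes from brightness between arrays alone, with an intraspot correlation of 0.53 taken from the fit without the block, which called 0 (8 higher at the unadjusted threshold). Residuals of same-numbered samples correlated at r = 0.20, -0.26, 0.32 and 0.056 for numbers 1 to 4, taken over genes. Samples of different numbers ran from -0.74 to 0.59, the latter for samples of the same array. With so few samples this check cannot settle whether the numbers pair them.

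Median centring in place of loess gave 5 lower members, 8 of one sign and a median of 0.1583. It turned Kcnk1 to -0.092, Kcnj1 to 0.35, Scn4b to 0.0027, Cacna1c to -0.13, Kcnh2 to -0.30, Kcnk3 to -0.30 and Scn3a to -0.27. The strict filter, which tests 62 members, gave 15 of one sign and a median of 0.043. Outlying backgrounds left out or kept as measured each gave 1 higher and 8 lower. Kcnk16 read 0.27 as a mean of its probes. With channel brightness in place of the dye term 1 member was higher and 8 lower, Cacna1c read -0.0645, Kcnk16 0.020 and Scn3a -0.024. For these counts, and for those of higher members in the separate-channel fits, shares of all genes are not given. The counts therefore do not show whether the members differ from the array as a whole. The causes were not tested.

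With each array left out in turn, 1 to 11 members were higher and 5 to 14 lower, and Cacna1c ranged from -0.012 to 0.24, Cacnb2 from -0.042 to 0.14, Kcnk3 from -0.034 to 0.14, Scn3a from -0.0074 to 0.15 and Kcnh2 from -0.033 to 0.13. Without array 1 there were 11 higher (17.3% of all genes) and 14 lower (13.7%), without array 2 there were 1 (1.98%) and 7 (2.69%), without array 3 there were 1 (0.71%) and 5 (1.61%), and without array 4 there were 3 (5.99%) and 10 (4.75%). Without array 2 Kcnmb2 read 0.17, Scn8a 0.067, Scn9a -0.27, Cacna1d 0.15 and Kcnk6 0.325, without array 3 Cacnb3 read -0.13, and without array 4 Cacng7 read 0.044. Low signal limits what can be seen in the 19 members above background in control channels alone.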
